A study of Mus musculus with 17 samples.

Results

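The genes described here encode the machinery that carries proteins into mitochondria. Members were the protein-coding genes of the count table whose symbols start with Timm or Tomm and a digit, together with Pam16, Dnajc15, Dnajc19, Grpel1, Grpel2, Chchd4, Gfer, Romo1, Mtx1, Mtx2, Samm50, Pmpca and Pmpcb. This gave 38 genes of the 56748 in the table, and 35 of them passed the filter on low counts and were among the 16195 genes tested.

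Poly(A)-selected RNA of heart tissue from C57BL/6N mice aged 12 to 16 months was sequenced in 9 hMut and 8 Ctrl hearts, 1 library a heart. The hMut mice carried 2 copies of the inducible Polg allele (Polg iMut/iMut) and 1 copy of Ckmm-cre, a Cre transgene under the muscle creatine kinase promoter, which is active in heart and skeletal muscle fibres and not in the other cells of the heart. Cre removed a floxed wild-type Polg cassette, after which the locus expressed a mitochondrial DNA polymerase with impaired proofreading. The genotype and Cre status of the Ctrl hearts behind these libraries are not given in the sources used here beyond the name Ctrl, and neither group received an experimental treatment. Total counts were 32915159 to 46486964 per library, and values are given as CPM, counts scaled to a library of 1000000, after TMM scaling of the libraries. Genes of the mitochondrial chromosome took 23.5% to 30.9% of counts in Ctrl and 15.9% to 23.0% in hMut. The cardiomyocyte markers were abundant, with Myh6, the main adult cardiac myosin, at a mean of 14921 CPM in Ctrl. Polg, the targeted gene, was at 27.1 to 47.2 CPM in Ctrl and 47.1 to 65.1 CPM in hMut hearts, with a log2 fold change of 0.74, and these gene-level counts do not separate the mutant from the wild-type coding sequence.

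Nearly all mitochondrial proteins are made in the cytosol and enter through the TOM complex of the outer membrane. From there they take separate routes. Beta-barrel proteins go through the SAM complex into the outer membrane, and carrier proteins are escorted across the intermembrane space by the small TIM chaperones to the TIM22 complex. Small cysteine-rich proteins are folded and trapped by the CHCHD4 and GFER disulfide relay, and proteins with a presequence pass through the TIM23 complex, pulled by a motor at its inner face, before a peptidase removes the presequence. In a heart, where mitochondria fill much of each cardiomyocyte, every route is in constant use. The disulfide relay and the small TIM chaperones are linked, since the small TIM proteins are themselves relay substrates.

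In hMut hearts 3 members rose and none fell. The genes that rose were Timm10 and Timm8a1, both small TIM chaperones, and Chchd4, the oxidoreductase of the disulfide relay. The changes were small, between 1.12-fold and 1.30-fold. The 250 bases before the annotated start of each of these genes are shown because they are the only members that passed the test. They were read from GRCm39, the build of the count table, 5′ to 3′ on the strand of the gene, with capitals on matches to the motifs named after them.

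Timm10, chr2:84657091-84657340, plus strand: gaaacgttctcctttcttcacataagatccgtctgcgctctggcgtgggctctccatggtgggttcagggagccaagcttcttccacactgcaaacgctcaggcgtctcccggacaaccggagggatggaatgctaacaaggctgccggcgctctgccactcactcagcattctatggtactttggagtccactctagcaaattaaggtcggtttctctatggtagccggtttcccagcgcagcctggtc
Timm8a1, chrX:133442615-133442864, minus strand: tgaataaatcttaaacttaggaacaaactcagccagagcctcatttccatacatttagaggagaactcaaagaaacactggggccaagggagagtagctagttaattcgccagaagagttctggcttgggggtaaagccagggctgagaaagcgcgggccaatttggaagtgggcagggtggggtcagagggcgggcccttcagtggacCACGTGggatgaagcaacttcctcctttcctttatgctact
Chchd4, chr6:91450529-91450778, minus strand: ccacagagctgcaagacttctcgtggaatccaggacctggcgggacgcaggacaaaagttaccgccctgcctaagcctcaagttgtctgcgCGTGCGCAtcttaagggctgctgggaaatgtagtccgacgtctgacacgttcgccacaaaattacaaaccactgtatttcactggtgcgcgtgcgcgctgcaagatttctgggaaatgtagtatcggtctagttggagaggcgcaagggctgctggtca

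Motifs were searched on both strands in these windows for all 21957 protein-coding genes with a complete window. The Timm8a1 window held the E-box CACGTG at bases 41 to 36 before the start, and 4 of 38 members against 6.50% of all genes had one. The Chchd4 window held the NRF1 half-core TGCGCANG on its minus strand at bases 159 to 152 before the start, a motif found in 4 of 38 members and 6.02% of all genes. The Timm10 window held none of the motifs searched. The remaining motifs were the ATF4-CHOP composite TGATGNAA, in 1 of 38 members (Tomm40l) and 3.39% of all genes, the ERR motif TNAAGGTCA, in 1 of 38 members (Timm8b) and 1.06%, the YY1 motif AAGATGGCG, in 0 of 38 members and 0.679%, and the GABPA motif CCGGAAG, in 12 of 38 members and 8.03%. The E-box and GABPA letters were added after promoter letters of the called genes had been read. The table's gene starts differ from later annotation, in which some Timm10 and Timm8a1 transcripts start inside the windows shown.

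Across all tested genes, the quasi-likelihood test of edgeR, adjusted by the Benjamini-Hochberg method, called 749 genes at an adjusted p under 0.05, 564 higher and 185 lower in hMut. The background share called was 3.48% for higher and 1.14% for lower. Against this, 3 of the 35 tested members were called higher and 0 lower. At an unadjusted p under 0.05 there were 4 higher and 3 lower members, beside 14.5% of all tested genes higher and 11.3% lower (25.8% in either direction). DESeq2 called the same 3 members higher and 0 lower, with 6.21% of its genes called higher. No member had every hMut heart above every Ctrl heart, which held for 0.543% of all tested genes. No member had every hMut heart below every Ctrl heart, and the share of all tested genes with that pattern is not given here. In sign, 12 members had a positive and 23 a negative log2 fold change, with a median of -0.02 beside 0.0023 for all tested genes. This sign depended on scaling: when libraries were scaled on the summed counts of cardiomyocyte marker genes, the median of all tested genes shifted to 0.24, the called genes were 98.6% higher in place of 75.3%, and all 35 members were positive with a median of 0.21, close to the shift itself.

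**Figure D1:**
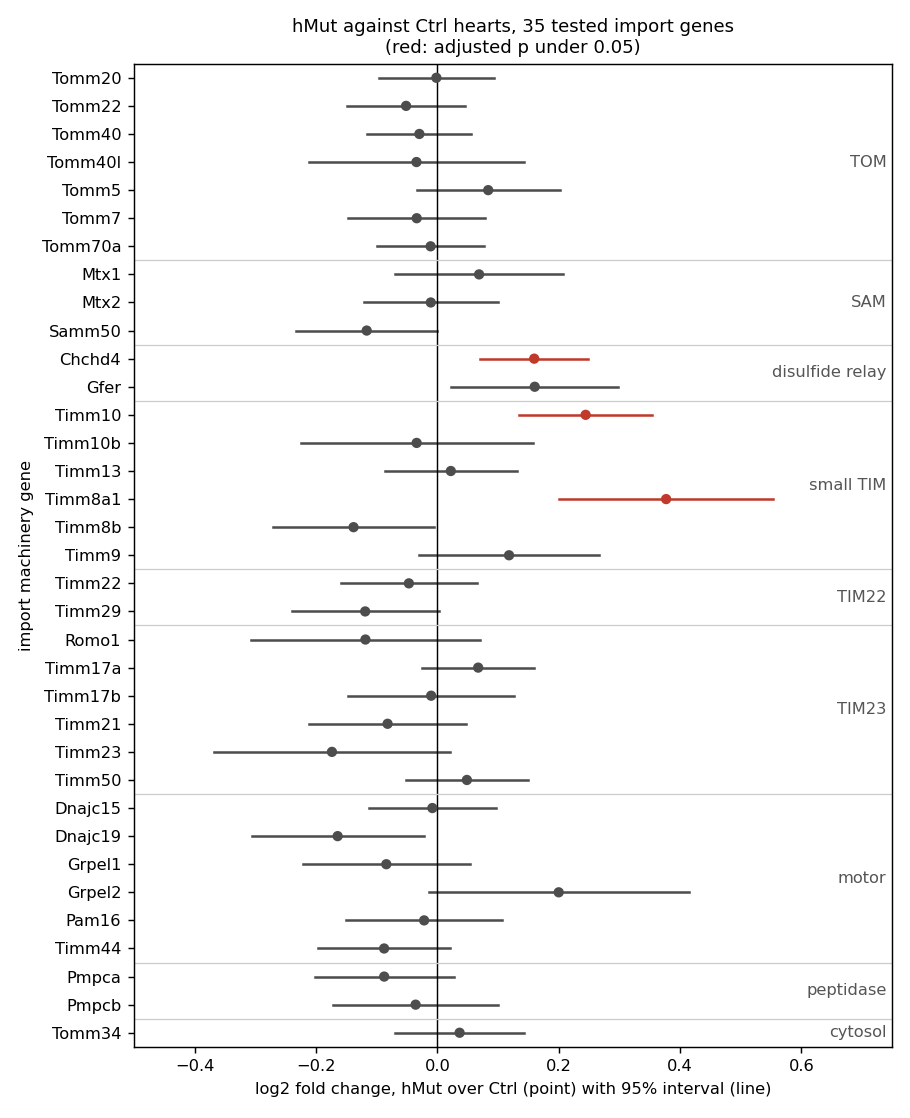
Log2 fold change of hMut over Ctrl hearts for the 35 tested import genes, in order of role, with the 95% interval from edgeR as a line. The 3 genes in red passed the adjusted threshold, and the points of all others lie between -0.17 and 0.20.

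Timm10 lies on chromosome 2 at 84657341 to 84660557, plus strand (ENSMUSG00000027076). Its protein forms, with TIMM9, the ring-shaped chaperone that shields hydrophobic carrier proteins in the intermembrane space. Timm10 was at 28.3 (lowest), 32.0 (median) and 36.9 CPM (highest) in the 8 Ctrl hearts, and at 36.0, 38.0 and 40.2 CPM in the 9 hMut hearts. The groups touched: 6 of 9 hMut hearts were above the highest Ctrl heart, and none was below the Ctrl median. The log2 fold change was 0.24 with an SE of 0.05 (95% interval 0.13 to 0.35, edgeR adjusted p = 0.0128). The hMut hearts were also closer together, with an SD of 1.49 CPM beside 3.15 CPM in Ctrl.

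Timm8a1 lies on chromosome X at 133438005 to 133442614, minus strand (ENSMUSG00000048007). It encodes the mouse counterpart of the deafness-dystonia protein TIMM8A, which pairs with TIMM13 in another small TIM chaperone. Its values were 10.4, 11.7 and 13.9 CPM (lowest, median, highest) in Ctrl and 12.2, 14.6 and 19.4 CPM in hMut hearts. Here 7 of 9 hMut hearts were above the highest Ctrl heart, with hMut replicates 9 and 7 the highest and hMut replicate 8 the lowest. The log2 fold change was 0.38 with an SE of 0.08 (95% interval 0.20 to 0.55, edgeR adjusted p = 0.0166), the largest of the 35 tested members.

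Chchd4 lies on chromosome 6 at 91439154 to 91450528, minus strand (ENSMUSG00000034203). CHCHD4, also called MIA40, forms disulfide bonds in incoming small TIM and twin-cysteine proteins. It was at 31.4, 35.7 and 37.3 CPM in Ctrl and at 37.3, 37.9 and 43.8 CPM in hMut hearts. All but 1 of the hMut hearts (8 of 9) were above the highest Ctrl heart, most of them narrowly. The log2 fold change was 0.16 with an SE of 0.04 (95% interval 0.07 to 0.25, edgeR adjusted p = 0.0404). This call was the least stable of the 3. It was lost when any one of Ctrl replicates 1, 2, 3, 5, 6, 7 and 8 or hMut replicates 3, 5, 7 and 9 was left out, with a log2 fold change of 0.14 to 0.17 throughout and an adjusted p of at most 0.086. It was also lost with upper-quartile scaling (adjusted p = 0.0642), with no filter on low counts (adjusted p = 0.0985) and with sex as a covariate (adjusted p = 0.0535), all in edgeR.

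**Figure D2:**
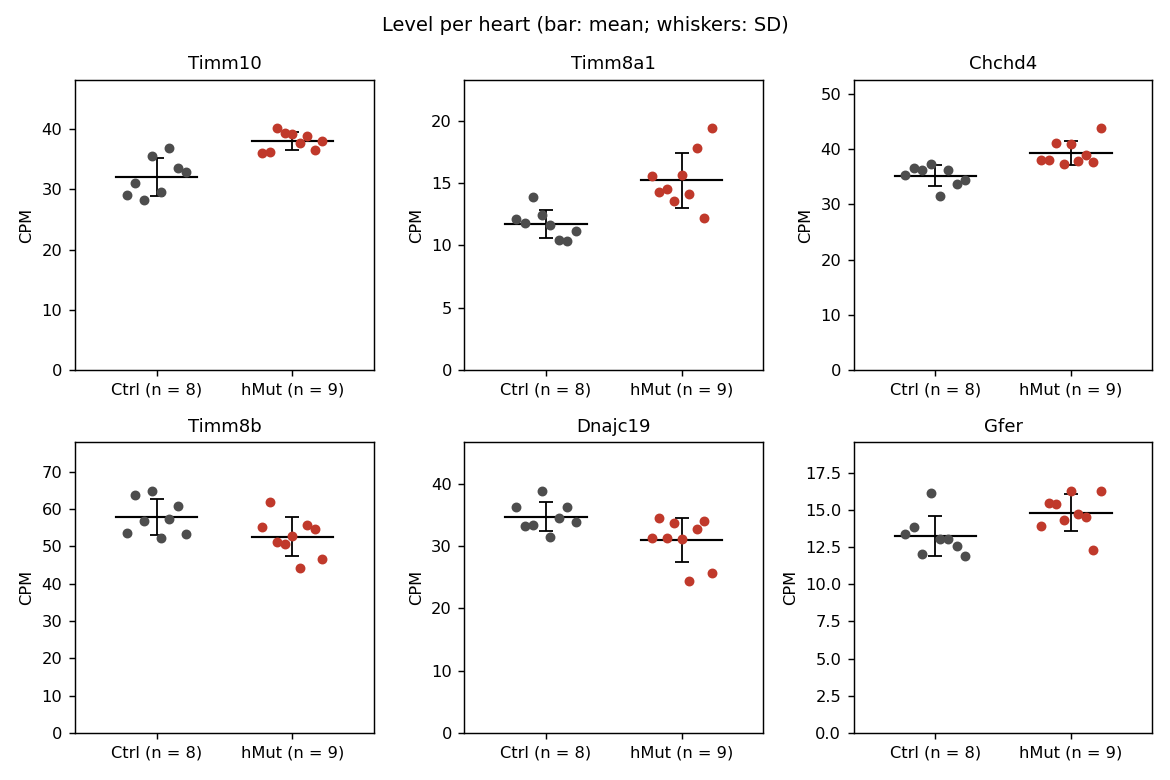
CPM of 6 import genes in each heart, with 8 Ctrl hearts in grey and 9 hMut hearts in red, the mean as a bar and the SD as whiskers, on axes that start at 0. In the top row (Timm10, Timm8a1, Chchd4) most hMut hearts (6, 7 and 8 of 9) lie above every Ctrl heart. The bottom row holds Timm8b, Dnajc19 and Gfer, and the ranges of the groups overlap in all 6 panels.

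The other members of these chaperone and relay groups did not pass. Gfer, the sulfhydryl oxidase that recharges CHCHD4 with disulfides, was at 11.9, 13.0 and 16.1 CPM in Ctrl and 12.3, 14.7 and 16.3 CPM in hMut hearts. Its log2 fold change of 0.16 equalled that of Chchd4, with an SE of 0.07 and an adjusted p of 0.139 in edgeR. Timm9, the partner of TIMM10, had a log2 fold change of 0.12 (SE 0.07), and Timm13, the partner of TIMM8A, one of 0.02 (SE 0.05). Timm8b, a paralog of Timm8a1, was at 52.2, 57.0 and 64.8 CPM in Ctrl and at 44.1, 52.6 and 61.9 CPM in hMut hearts. Its log2 fold change was -0.14 with an SE of 0.06 (edgeR adjusted p = 0.179), and 4 of 9 hMut hearts were below the lowest Ctrl heart. Timm10b, whose product joins the chaperones to TIM22, was at 2.85, 3.27 and 4.01 CPM in Ctrl and 2.37, 3.40 and 3.59 CPM in hMut hearts, with a log2 fold change of -0.03 (SE 0.09, edgeR adjusted p = 0.834). The remaining family member, Timm8a2, had 0 to 2 counts in every library and was not tested. Over the 6 tested small TIM genes, 2 rose, and the median log2 fold change was 0.07. In the relay, 1 of 2 rose.

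In the TOM complex none of the 7 tested genes passed. Tomm20 and Tomm70a, the receptors that bind presequences and carrier proteins, had log2 fold changes of -0.0016 (SE 0.04) and -0.01 (SE 0.04). For Tomm22, the central receptor, the value was -0.05 (SE 0.05), and for Tomm40, the channel itself, it was -0.03 (SE 0.04). Tomm40l, another channel gene, was at -0.03 (SE 0.08), and the small subunits Tomm5 and Tomm7 were at 0.08 (SE 0.06) and -0.03 (SE 0.05). Tomm20l and Tomm6 each had 0 to 3 counts per library and were not tested. For Tomm6, a small TOM subunit, 1648 of its 1741 bases lie inside another protein-coding gene on the same strand, Gm21981, and the table gives no rule for reads that fall in both. Its near-absence here therefore cannot be read as absence of the transcript.

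The outer-membrane assembly genes did not pass either. Samm50, the SAM barrel, was at 223 to 247 CPM in Ctrl and 182 to 253 CPM in hMut hearts, with 6 of 9 hMut hearts below the lowest Ctrl heart. Its log2 fold change was -0.12 with an SE of 0.06 (edgeR adjusted p = 0.193). The metaxins Mtx1 and Mtx2, which cap the SAM complex on its cytosolic side, were at 0.07 (SE 0.07) and -0.01 (SE 0.05) in log2 fold change. Mtx1 shares 11658 bases with Thbs3 on the opposite strand, and whether counting used strand is not given in the sources used here.

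At the inner membrane the carrier route and the presequence route gave small differences that did not pass. Timm22, the carrier insertase, had a log2 fold change of -0.05 (SE 0.05), and Timm29, its subunit that contacts TOM, one of -0.12 (SE 0.06). In the TIM23 complex, Timm23, the channel, was at 103, 119 and 168 CPM in Ctrl and 85.9, 112 and 139 CPM in hMut hearts. Its log2 fold change was -0.17 with an SE of 0.09 (edgeR adjusted p = 0.237), the most negative of all members. Without Ctrl replicate 6, the highest Ctrl heart, it was -0.10, and Dnajc19 was then the most negative at -0.17. Timm17a and Timm17b, alternative channel partners, were at 0.07 (SE 0.04) and -0.01 (SE 0.07) in log2 fold change. For Timm50, the receptor of the complex, the value was 0.05 (SE 0.05), for Timm21, which links TIM23 to the respiratory chain, -0.08 (SE 0.06), and for Romo1, a small subunit that recruits TIMM21, -0.12 (SE 0.09).

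The import motor uses the chaperone HSPA9, held at the channel by TIMM44 and driven by J-proteins and nucleotide exchange factors. Timm44 had a log2 fold change of -0.09 (SE 0.05), and Pam16, the inhibitory J-like subunit, one of -0.02 (SE 0.06). Dnajc19, a J-protein whose loss causes dilated cardiomyopathy with ataxia, was at 31.4, 34.2 and 38.9 CPM in Ctrl and 24.5, 31.3 and 34.5 CPM in hMut hearts, where 5 of 9 hearts were below the lowest Ctrl heart. Its log2 fold change was -0.16 with an SE of 0.07 (edgeR adjusted p = 0.142). Dnajc15, its paralog, was at 61.8, 66.9 and 71.3 CPM in Ctrl and 55.0, 66.5 and 73.2 CPM in hMut hearts, with a log2 fold change of -0.0082 (SE 0.05, edgeR adjusted p = 0.933). The exchange factors differed in sign, with Grpel1 at -0.08 (SE 0.07) and Grpel2 at 0.20 (SE 0.10), and neither passed. The peptidase subunits Pmpca and Pmpcb, which cut presequences in the matrix, were at -0.09 (SE 0.05) and -0.04 (SE 0.06), and Tomm34, a cytosolic cochaperone of preproteins, was at 0.04 (SE 0.05).

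For the 32 tested members that did not pass, the intervals bound the change under TMM scaling. Their log2 fold changes ran from -0.17 to 0.20, with adjusted p values of 0.139 to 0.987 in edgeR. All of their 95% intervals lay within -0.37 to 0.41, which is 0.774-fold to 1.33-fold, and 25 of the 32 intervals lay within 0.25 of 0 on the log2 scale. With scaling on cardiomyocyte markers, which shifted the median of all genes to 0.24, Grpel2 was at 0.46 and Gfer at 0.41, at or past the upper bound. A miss of the threshold does not show that these genes were the same in both groups.

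Levels of the genes relative to each other can be compared only after division by length. In Ctrl hearts the mean level per kilobase of gene length was highest for Timm8b (112 CPM per kb), Tomm5 (86.2 CPM per kb) and Timm23 (70.2 CPM per kb), and lowest for Timm9 (3.11 CPM per kb), Mtx1 (2.24 CPM per kb) and Timm10b (0.933 CPM per kb). Timm10b shares most of its bases with Gm45799 on the same strand, so its count, and with it its place at the low end, depends on how reads in both genes were handled, which is not given in the sources used here. Within the small TIM family, Timm10 was at 39.4 and Timm9 at 3.11 CPM per kb, although their proteins assemble together, and Timm8b stood at 112 against 8.26 CPM per kb for Timm8a1. Gene length in the table counts every annotated exon, so a gene with long unused exons reads low.

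**Figure D3:**
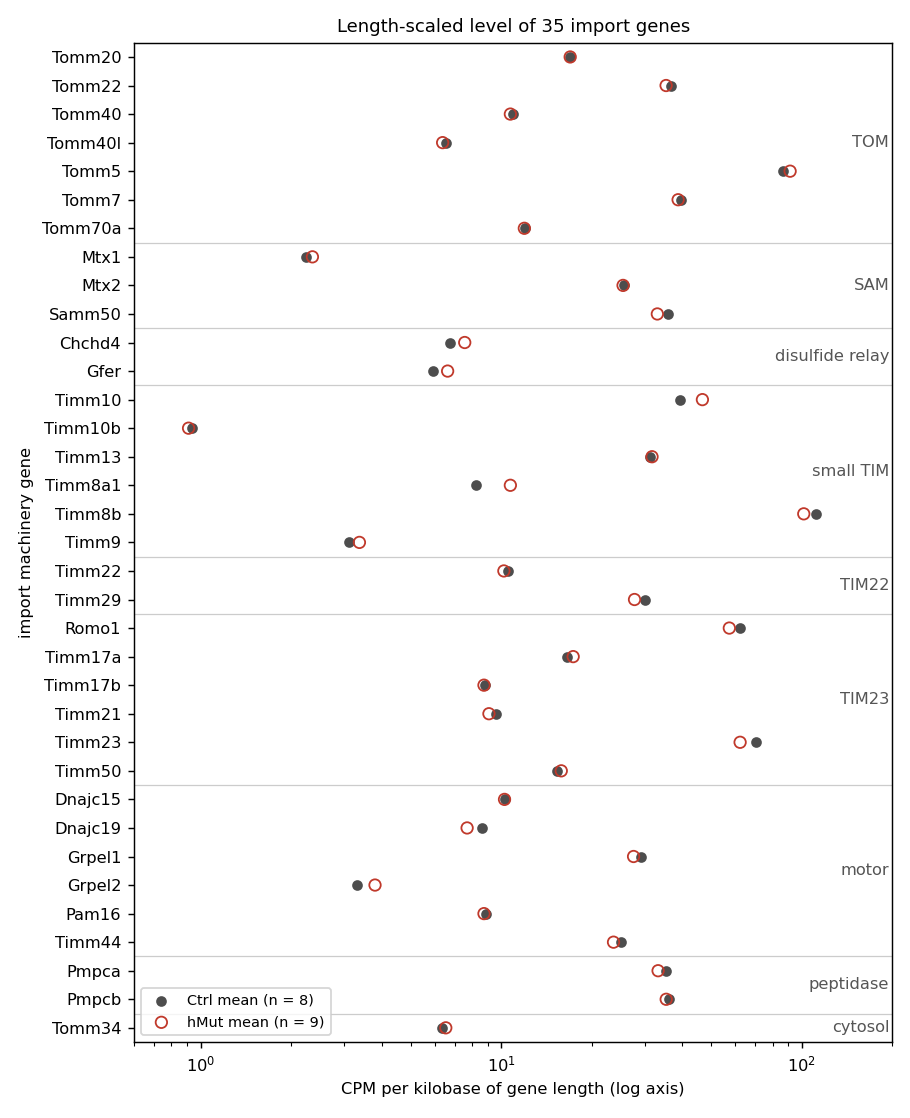
Mean CPM per kilobase of gene length, on a log axis, for the 35 tested import genes in Ctrl (filled grey, n = 8) and hMut hearts (open red, n = 9). Levels run from 0.933 for Timm10b to 112 for Timm8b in Ctrl, and the groups lie almost on top of each other beside that range.

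Pairs of paralogs, partners and subunits were then compared as ratios within a heart. These depend on how libraries are scaled only through the 0.5 added to each CPM value. For each of 12 pairs, the difference in mean log2 ratio between hMut and Ctrl was tested by exact permutation, two-sided, across all 24310 assignments of hearts to groups, and adjusted over the 12 pairs. Of these, 3 of 12 pairs passed. The ratio of Timm8a1 to Timm8b ran from -2.50 to -1.99 in Ctrl, with a median of -2.27, and from -2.12 to -1.24 in hMut hearts, with a median of -1.78. Of the hMut hearts, 7 of 9 were above the highest Ctrl heart. The mean was -2.25 ± 0.17 (SD, n = 8) in Ctrl and -1.76 ± 0.26 (SD, n = 9) in hMut, a difference of 0.49 (exact permutation p = 0.000617, adjusted p = 0.0074). The paralog that was lower in level gained on the more abundant one, and its own rise had passed the test while the difference of Timm8b had not.

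The J-protein ratio also shifted. Dnajc15 over Dnajc19 was 0.94 ± 0.06 (SD, n = 8) in Ctrl, with a range of 0.84 to 1.06, and 1.10 ± 0.11 (SD, n = 9) in hMut hearts, with a range of 0.94 to 1.32. The difference was 0.16 (exact permutation p = 0.00263, adjusted p = 0.0158), and 6 of 9 hMut hearts were above every Ctrl heart. Neither gene passed the test alone. Compared by medians in place of means, the difference was 0.12 and no longer passed (adjusted p = 0.106, permutation over the same assignments). Dnajc19 shares 14303 bases with Fxr1 on the opposite strand.

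Timm10 over Timm10b was 3.08 ± 0.17 (SD, n = 8) in Ctrl and 3.36 ± 0.20 (SD, n = 9) in hMut hearts, with ranges of 2.91 to 3.43 and 3.18 to 3.83. The difference was 0.28 (exact permutation p = 0.00531, adjusted p = 0.0212), although only 2 of 9 hMut hearts were above every Ctrl heart, and by medians it was 0.25 (adjusted p = 0.0541, permutation over the same assignments). Timm10 had already passed the test alone and Timm10b had not, so this ratio is not independent of the Timm10 call. Timm10b had only 90 to 161 counts per library, and 3086 of its 3582 bases are shared with Gm45799 on the same strand. The ratio of Grpel1 to Grpel2 was 2.18 ± 0.11 (SD, n = 8) in Ctrl and 1.91 ± 0.28 (SD, n = 9) in hMut hearts, and 6 of 9 hMut hearts were below every Ctrl heart. It did not pass (difference -0.27, exact permutation p = 0.0188, adjusted p = 0.0563). The Grpel ratio also missed the threshold in 15 of the 17 runs with 1 heart left out. Over all 17 the difference was -0.33 to -0.22, with an adjusted permutation p of at most 0.107. The other 2 runs left out hMut replicate 8 (-0.33, adjusted permutation p = 0.00684) or hMut replicate 2 (-0.31, adjusted permutation p = 0.0368). Replicate 8 was the single hMut heart above every Ctrl heart, so its removal widens the difference by construction.

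The other 8 pairs did not pass. Chchd4 over Gfer, the 2 arms of the disulfide relay, differed by 0.0017 (exact permutation p = 0.973), with means of 1.38 ± 0.12 (SD, n = 8) and 1.38 ± 0.09 (SD, n = 9). The differences were 0.08 for Timm17a over Timm17b, -0.13 for Timm9 over Timm10, 0.02 for Tomm40 over Tomm40l and 0.01 for Tomm20 over Tomm70a. They were 0.08 for Mtx1 over Mtx2, -0.05 for Pmpca over Pmpcb and 0.13 for Timm22 over Timm23. The adjusted p values of these 7 pairs were 0.175 to 0.926 in the exact permutation test.

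**Figure D4:**
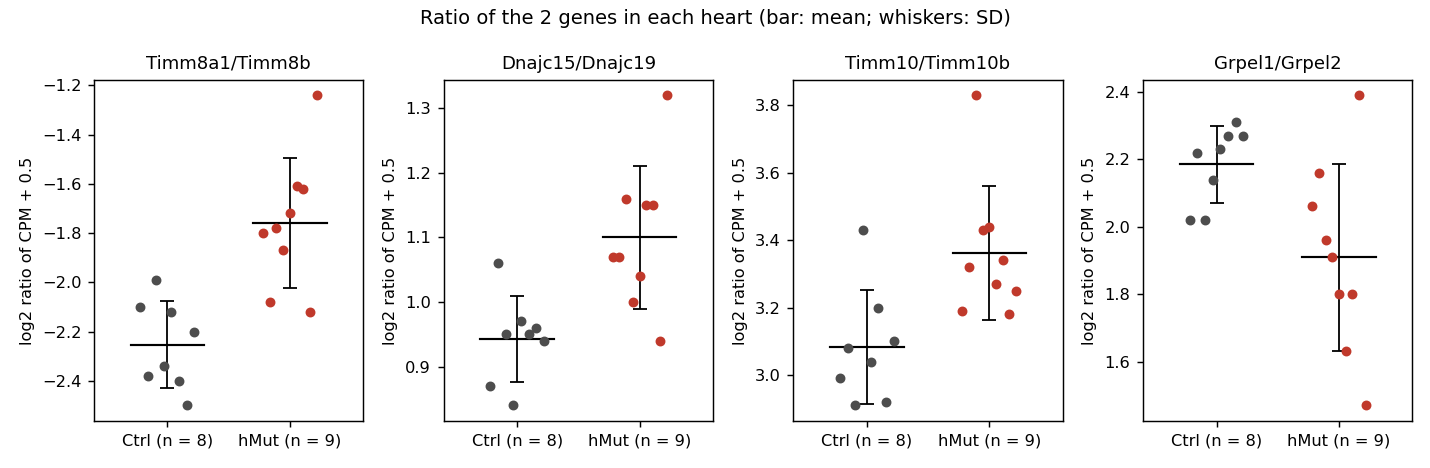
Log2 ratio of CPM + 0.5 of 2 genes in each heart for 4 pairs, with 8 Ctrl hearts in grey, 9 hMut hearts in red, the mean as a bar and the SD as whiskers. The hMut mean is 0.49 above Ctrl for Timm8a1/Timm8b, 0.16 for Dnajc15/Dnajc19 and 0.28 for Timm10/Timm10b, and -0.27 from it for Grpel1/Grpel2, which did not pass.

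The members' median had a wider range over hMut hearts than over Ctrl hearts. The median log2 difference of the 35 members from the Ctrl mean was -0.07 to 0.08 in the 8 Ctrl hearts. In hMut it was -0.21 in replicate 6, -0.10 in replicate 9, -0.06 in replicate 8, while the other 6 hearts were at 0.00 to 0.09. The heart hMut replicate 6 alone held the lowest value of all 17 hearts for 20 of the 35 members, with 27 below and 8 above the Ctrl mean. Its lowest were Romo1 (-0.60), Timm23 (-0.53), Timm21 (-0.50) and Dnajc19 (-0.49), and the same genes were at -0.47, -0.34, -0.20 and -0.42 in replicate 9. Above the Ctrl mean in this heart were Timm8a1 (0.26), Timm10 (0.23), Gfer (0.15), Grpel2 (0.13), Chchd4 (0.11), Tomm34 (0.11), Timm10b (0.05) and Mtx1 (0.0031). All of these 8 were also above it in replicate 9, led by Timm8a1 (0.71) and Grpel2 (0.58).

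The same hearts stood apart in markers of several cell types. The 12 cardiomyocyte markers had a median of -0.56 in hMut replicate 6 and -0.47 in replicate 9, and of -0.19 to 0.05 in the other hMut hearts. Their summed level was 50681 to 60646 CPM in Ctrl and 38621 to 59084 CPM in hMut hearts. Across the groups, 0 of 12 were called and all 12 were negative, with a median log2 fold change of -0.22 (8 of 12 had an unadjusted p under 0.05 in edgeR, as did 25.8% of all tested genes). Macrophage markers were at 2.02 and 1.04 in replicates 6 and 9 and between -0.03 and 0.29 in the others, with sums of 284 to 412 CPM in Ctrl and 354 to 1365 CPM in hMut. None of the 9 macrophage markers was at 0 in any library, and 0 of 9 were called (6 of 9 unadjusted). Fibroblast markers were at 0.99 and 0.62 in these hearts, with sums of 902 to 1064 CPM in Ctrl and 894 to 2063 CPM in hMut, and 0 of 8 were called (7 of 8 unadjusted). Lymphoid markers were at 2.65 and 0.34, with sums of 3.12 to 50.2 CPM in Ctrl and 6.09 to 76.1 CPM in hMut, and 0 of 10 were called (5 of 10 unadjusted). Atrial markers were at 2.50 and 2.17 in replicates 6 and 9, with -0.27 to 0.91 over the remaining hMut hearts and -0.35 to 0.42 in Ctrl. Their sums were 44.9 to 168 CPM in Ctrl and 80.1 to 726 CPM in hMut, and of the 4 tested, all positive, 1 was called higher (3 of 4 unadjusted): Bmp10, a growth factor of atrial muscle, with a log2 fold change of 5.58 (SE 0.63, edgeR adjusted p = 3.25e-05). Nppa, the atrial natriuretic peptide, was at 1.16 (SE 0.41) and Dkk3 at 1.04 (SE 0.40), whereas Sln and Myl7 had 0 to 11 and 0 to 19 counts per library and were not tested. Smooth muscle and pericyte markers were at 0.36 and 0.58 in replicates 6 and 9, with -0.02 to 0.32 over the remaining hMut hearts and -0.30 to 0.12 in Ctrl, and 1 of 6 was called higher (4 of 6 unadjusted). Their sums were 772 to 1038 CPM in Ctrl and 732 to 1126 CPM in hMut. The lowest sum was that of hMut replicate 6, in contrast to its median. The part of these markers in the import values was not tested. In bulk tissue, fewer cardiomyocytes and less import RNA per cardiomyocyte cannot be told apart.

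Without hMut replicates 6 and 9, Timm10 and Timm8a1 stayed past the threshold and Chchd4 did not (log2 fold change 0.14, edgeR adjusted p = 0.0760). The members' median log2 fold change was then 0.02, with 21 of 35 positive in place of 12. The same 3 pair ratios passed without these hearts.

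**Figure D5:**
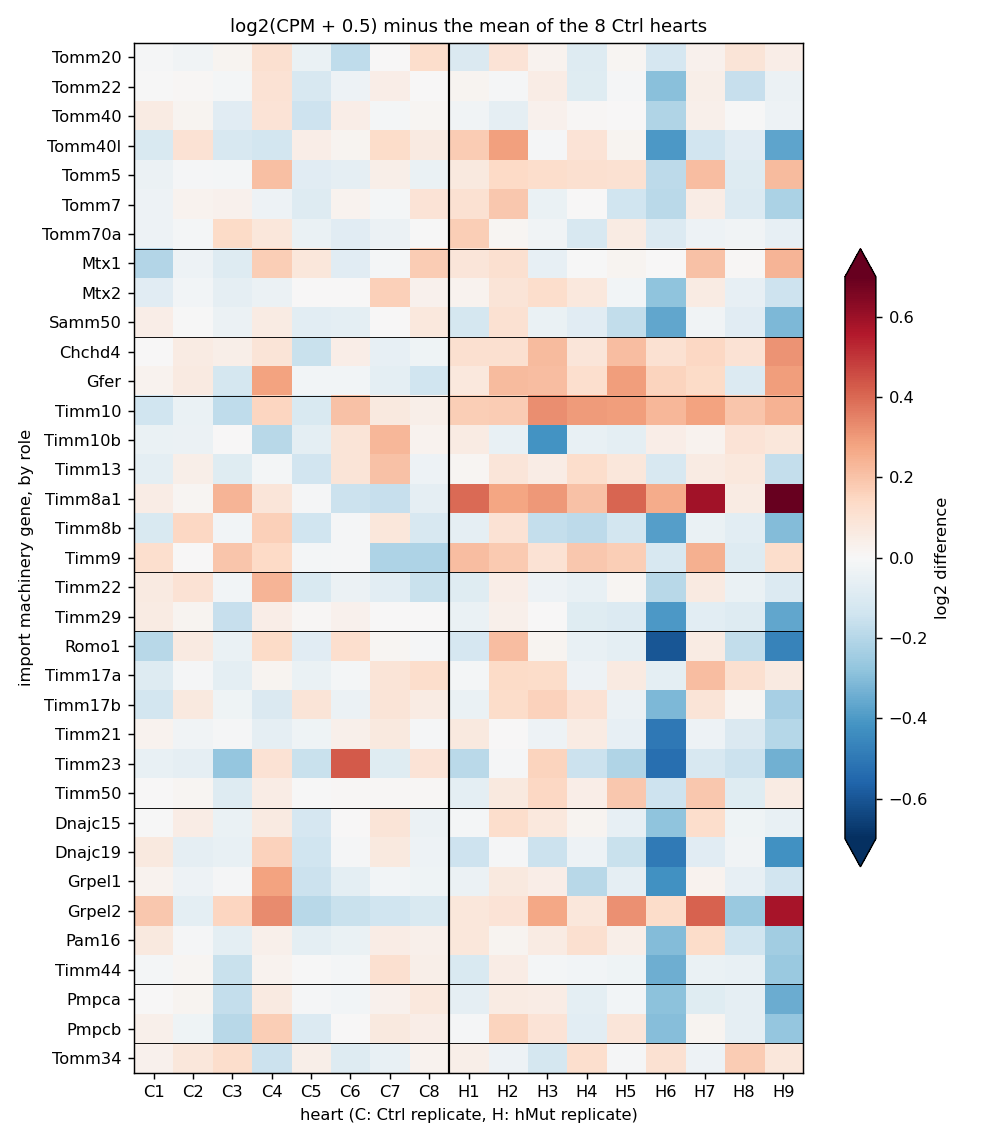
Log2(CPM + 0.5) of each tested import gene in each heart minus its mean over the 8 Ctrl hearts, with genes in rows by role and hearts in columns (C1 to C8 Ctrl, H1 to H9 hMut). Column H6 is blue for 27 of 35 genes, H9 less so, and the rows of Timm10, Timm8a1 and Chchd4 are red across hMut.

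Genes outside the rule that act with the machinery gave the following counts, beside 3.48% of all tested genes called higher and 1.14% called lower. Of 25 tested import partners (chaperones that deliver or fold preproteins, peptidases, cristae-organizing proteins and insertases), 2 were higher and 0 lower, with a median log2 fold change of 0.0020. Hsp90aa1, the inducible cytosolic HSP90, was at 147 ± 25.3 CPM (SD, n = 8) in Ctrl and 217 ± 46.6 CPM (SD, n = 9) in hMut, and its log2 fold change was 0.56 (SE 0.12, edgeR adjusted p = 0.0166). Chchd6, a cristae-organizing protein, went from 7.33 ± 0.768 (SD, n = 8) to 9.45 ± 1.75 CPM (SD, n = 9), a log2 fold change of 0.37 (SE 0.10, edgeR adjusted p = 0.0487). The third by adjusted p, Immp1l, an inner-membrane peptidase subunit, was at -0.19 (SE 0.08, edgeR adjusted p = 0.150) and did not pass. The list of disulfide relay substrates was written without the small TIM genes, and Chchd3 and Chchd6 were placed among the partners and not in it. Of the 18 tested substrates in this list, 0 were called and the median was -0.07. At an unadjusted p under 0.05 in edgeR there were 6, a cut that 25.8% of all tested genes passed. The small TIM proteins are relay substrates too, and 2 of their 6 tested genes, Timm10 and Timm8a1, were called higher. Among those with the smallest adjusted p values were the cytochrome oxidase assembly factors Cox19, with a log2 fold change of 0.23 (SE 0.08), and Cox17, with one of -0.30 (SE 0.11), and neither passed.

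The size of the import changes can be set beside lists with known large shifts in the same hearts. Of all tested genes, 3.48% were called higher and 1.14% lower. Of the 13 mRNAs encoded by mitochondrial DNA, which need no import, 9 were lower and 0 higher, with a median log2 fold change of -0.65. The smallest adjusted p values were those of the complex I genes mt-Nd4l (-1.30, SE 0.18), mt-Nd2 (-0.77, SE 0.12) and mt-Nd4 (-0.75, SE 0.12). Of the 17 tested mitochondrial stress response genes, 16 were higher and 0 lower, with a median of 2.08, and the smallest adjusted p values were those of the folate enzyme Mthfd2 (4.07, SE 0.30), asparagine synthetase Asns (3.56, SE 0.32) and the serine enzyme Psat1 (2.74, SE 0.25). The largest change of an import gene, 0.38 for Timm8a1, was below the median of both lists in size.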

How the data were processed

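Heart RNA libraries of 9 hMut and 8 Ctrl samples were analysed from the table of raw read counts per gene that the authors deposited. Per the labels and the study's methods, reads were poly(A)-selected, trimmed with fastp, aligned to GRCm39 (mm39) with HISAT2 2.2.1 and counted with featureCounts 2.0.6. The strand setting and the annotation release are not given in the sources used here, and DESeq2 1.42.0 was the authors' own test. Groups followed the labels, and 1 library is 1 labelled heart sample. Where nothing states that samples came from separate litters or days, p-values measure the spread between these samples only.

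Counts were tested with edgeR 4.0.16 (quasi-likelihood, TMM, filterByExpr, genotype as the only term), with Benjamini-Hochberg adjustment over all 16195 tested genes and a threshold of 0.05. Each SE was taken from the fold change and its F statistic (log2 fold change over root F). Gene pairs were compared as log2(CPM + 0.5) ratios with exact permutation tests (scipy 1.17.1). Both procedures were tested on data of known answer. In simulated counts edgeR called 71% of genes changed by 0.5 in log2, 97% of those changed by 1 and 0.0695% of unchanged genes. The changed genes had a mean of at least 50 counts. Changes under 0.5, as in all members here, were not simulated, so the share found at that size is not known. Alternatives were DESeq2 1.42.0, limma-voom (limma 3.58.1) with quality weights, other scalings and filters, sex read from Xist and Y-linked counts (3 female and 5 male Ctrl, 2 female and 7 male hMut) as a covariate, a block for replicate number, and libraries left out. Where marker or outside lists are described, their genes stand in lists written by hand, and up to 3 genes a list, those of smallest adjusted p, are named, and 1 gene that this rule would name is not reported here. Every member is named, with full values for those that passed or belonged to a passing pair. Members and lists were chosen with earlier results of these data known. Endothelial markers (1 of 8 tested called, higher) and erythroid markers (0 of 5) are not discussed further, and no adipocyte marker passed the filter on low counts. Spearman correlations between libraries were 0.906 to 0.926, so none was a copy of another.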

Additional observations from a re-analysis of the deposited data

Results flagged for a closer look

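Among 94 groups of values (35 members and 12 pair ratios, each in 8 Ctrl or 9 hMut hearts), 14 held 1 heart whose distance to its nearest neighbour passed Dixon's 95% limit. Chance alone flags about 5% of such groups. Ctrl replicate 3 was the lowest Ctrl heart for Timm29 (85.1 CPM), Timm50 (38.6 CPM), Timm44 (82.3 CPM, next 90.9) and Pmpca (135 CPM). Ctrl replicate 4 was the highest for Tomm5 (86.6 CPM) and Grpel1 (125.0 CPM), and Ctrl replicate 7 for Mtx2 (105 CPM, next 96.0). In hMut, replicate 6 was the lowest for Timm21 (25.2 CPM), Tomm40 (42.6 CPM) and Dnajc15 (55.0 CPM). In hMut replicate 3, Timm10b was the lowest at 2.37 CPM and the ratio of Timm10 to Timm10b the highest at 3.83 on the log2 scale. The log2 ratio of Tomm20 to Tomm70a was lowest in hMut replicate 1 at -0.77, and that of Chchd4 to Gfer was highest in hMut replicate 8 at 1.58. None of the 3 called genes was among these.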

How the results depend on the processing

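The number of genes called across the table moved from 749 to 6563 when libraries were scaled on cardiomyocyte markers, 463 with no filter on low counts, 431 without hMut replicates 6 and 9, 2081 in limma-voom and 1517 in DESeq2, and to between 395 and 1792 with 1 library left out, the highest without hMut replicate 2. Members called were 27 with scaling on cardiomyocyte markers and 2 to 3 with 1 library left out, and under the difference of medians 1 pair ratio passed in place of 3. Scaling on cardiomyocyte markers, which by construction shifts every gene (the median of all genes to 0.24), turned the sign of 23 members, none called at first: Mtx2 0.22, Samm50 0.11, Timm22 0.19, Timm29 0.11, Romo1 0.10, Timm17b 0.21, Timm21 0.14, Timm23 0.06, Tomm20 0.24, Tomm22 0.18, Tomm40 0.21, Tomm40l 0.18, Tomm7 0.19, Tomm70a 0.22, Dnajc15 0.23, Dnajc19 0.06, Grpel1 0.15, Pam16 0.21, Timm44 0.14, Pmpca 0.14, Pmpcb 0.19, Timm10b 0.21, Timm8b 0.09. Signs also turned without hMut replicates 6 and 9 (Mtx2 0.04, Timm17b 0.06, Tomm20 0.0089, Tomm40l 0.05, Tomm7 0.01, Tomm70a 0.0076, Dnajc15 0.03, Pam16 0.05, Pmpcb 0.03, and the ratio of Tomm40 to Tomm40l -0.05), in limma-voom (Mtx2 0.02, Timm17b 0.03, Tomm20 0.02, Tomm70a 0.01, Dnajc15 0.02, Pam16 0.03, Pmpcb 0.02), with sex as a covariate (Mtx2 0.0025), with no filter (Tomm20 0.00015) and with 0.1 added to CPM (ratio of Chchd4 to Gfer -0.0011). With 1 library left out, signs turned for Mtx2 (-0.03 to 0.02), Timm17b (-0.03 to 0.02), Tomm20 (-0.03 to 0.02), Tomm40l (-0.08 to 0.0067), Tomm70a (-0.04 to 0.0079), Dnajc15 (-0.03 to 0.02), Pam16 (-0.04 to 0.01), Timm10b (-0.07 to 0.02), and for the ratios Tomm40 to Tomm40l (-0.02 to 0.06), Tomm20 to Tomm70a (-0.0059 to 0.05), Chchd4 to Gfer (-0.03 to 0.03). Apart from the scaling on cardiomyocyte markers, these values lie between -0.08 and 0.06, and the cause was not tested. Pmpca to Pmpcb passed (-0.07) without Ctrl replicate 4. Timm10 and Timm8a1 kept their calls under every alternative run except the replicate block, with adjusted p values of 0.000956 to 0.062 and 0.0014 to 0.0866 over all alternatives with no single library left out. Over the same alternatives Chchd4 had adjusted p values of 0.00818 to 0.175, and in the permutation tests those of the ratios were 0.0109 to 0.106 for Dnajc15 to Dnajc19, 0.0109 to 0.0625 for Timm10 to Timm10b, 0.00691 to 0.0469 for Timm8a1 to Timm8b and 0.0541 to 0.211 for Grpel1 to Grpel2.

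The replicate numbers were shared by the groups, and the labels do not say whether they pair hearts. Deviations of same-numbered hearts correlated at -0.255 to 0.399, and only number 8 correlated best with its own. These correlations cannot settle whether the numbers stand for a shared litter or day. With the replicate block, 185 genes, 0 members and 2 pair ratios passed. Timm10 was then at 0.25 (adjusted p = 0.062), Timm8a1 at 0.32 (adjusted p = 0.0866) and Chchd4 at 0.14 (adjusted p = 0.175) in edgeR. Signs turned for Mtx2 (0.0031), Timm17b (0.01) and the ratios of Tomm40 to Tomm40l (-0.02), Tomm20 to Tomm70a (-0.00017) and Chchd4 to Gfer (-0.00067). Timm10b, with 90 to 161 counts a library, is the tested member that counting error limits most.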
